A study of Rattus norvegicus with 12 samples.

Results

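Gene expression in dorsal root ganglia of all 8 cisplatin-exposed rats was set against that of 4 vehicle rats, to find differences from vehicle that were present with and without CYM-5478. The 8 exposed rats are every library whose treatment label holds cisplatin, 4 of them given CYM-5478 as well, and together with the 4 vehicle rats they make up all 12 libraries of the series. All rats were Sprague Dawley animals whose genotype is given as wild, and each library is labelled as a separate biological replicate. The first group had cisplatin, a platinum chemotherapy drug, into the peritoneum at 3 mg/kg on days 0, 7 and 14, and also CYM-5478, a small molecule that activates S1P2, a receptor of the lipid sphingosine 1-phosphate. CYM-5478 was given every day, starting on day -1 and ending on day 20. The dose of CYM-5478 is 0.1 mg/kg in the sample labels and 1 mg/kg in the treatment protocol. The next group had the same cisplatin without CYM-5478. The vehicle group had saline with 0.1% Tween 20 and 1% DMSO. CYM-5478 was not given on its own in any group, so the pooled comparison holds 4 rats with a second drug, and an action of that drug by itself cannot be told apart from an action on the response to cisplatin. Age and sex are not given in the sources used here.

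Cisplatin forms adducts and crosslinks on DNA. Dorsal root ganglia, which lie outside the blood-nerve barrier, hold the cell bodies of sensory neurons together with satellite glia, Schwann cells, blood vessels, connective tissue and macrophages, and sensory neuropathy is a known dose-limiting effect of the drug. DNA damage activates the transcription factor p53, whose best known target in most tissues is Cdkn1a, the cell cycle inhibitor p21. In bulk tissue, fewer cells of a type and less RNA per cell cannot be told apart, and this holds for every value below.

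Levels are in FPKM, which corrects fragment numbers for length and sequencing depth, and each gene's value is the total over its transcripts after scaling of the library. Of 25252 genes, 16753 had a mean level of at least 0.5 FPKM and were tested with limma on log2(FPKM + 0.5), so that log2 changes of low genes are understated. Both exposed groups had equal weight in the pooled change, and a gene passed where its Benjamini-Hochberg adjusted p was under 0.05. The p-values measure the spread between these rats. The sum of all deposited FPKM per library was 632 ± 30.8 (in units of 1000 FPKM, SD, n = 8) in exposed rats and 602 ± 7.06 (n = 4) in vehicle rats (two-sided exact permutation p = 0.113, where 0.00404 is the smallest p that 8 against 4 can give). Within the exposed rats the sum was 606 ± 14 with CYM-5478 and 657 ± 14.8 without it (n = 4 each). Neuronal markers such as Uchl1 and Tubb3 and peripheral myelin genes were among the abundant transcripts of every library, as the tissue label says, and read depth is unknown because no counts were used.

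In the pooled comparison 1 of 16753 genes passed (0.00597%), and it was lower in exposed rats. This was Nrarp, a Notch-regulated ankyrin repeat protein that is itself a target of Notch signalling and limits it. Nrarp was at 5.52, 5.1, 5.46 and 5.88 FPKM in rats with cisplatin and CYM-5478, at 4.32, 3.74, 4.89 and 4.46 FPKM in rats with cisplatin, and at 7.63, 7.95, 7.42 and 8.73 FPKM in vehicle rats. All 8 exposed libraries were below all 4 vehicle libraries, and the pooled log2 change was -0.65 (SE 0.07, limma adjusted p = 0.0265). Set against the same vehicle rats, the log2 change was -0.49 (SE 0.08) with CYM-5478 and -0.80 (SE 0.08) without it. The difference between the exposed groups, 0.31 on the log2 scale (95% interval 0.12 to 0.49), did not pass (limma adjusted p = 0.0555). The call on Nrarp was lost when cisplatin replicate 4, any of CYM-5478 replicates 1, 3 and 4, or any vehicle library was left out (limma adjusted p 0.0603 to 0.143), while the log2 change stayed between -0.68 and -0.60 over all libraries left out in turn. The call was also lost with the 8 exposed rats fitted as 1 group (limma adjusted p = 0.23).

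No gene passed in the higher direction with all 12 libraries, and no rise can therefore be called in the pooled comparison. When cisplatin replicate 1, CYM-5478 replicate 2 or vehicle replicate 2 was left out, 1 gene passed higher in each case. Without adjustment, 2859 genes (17.1%) had p under 0.05, of which 1187 (7.09%) were higher and 1672 (9.98%) lower in exposed rats. The count was 1720 without vehicle replicate 2. The shares of all genes, 7.09% higher and 9.98% lower, are the background for the counts at unadjusted p in every gene list that follows. The median pooled log2 change over all tested genes was 0.003.

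To show a gene's upstream sequence beside its values, the 250 bases before the start of Nrarp, the gene that passed, are printed with those of Cdkn1a and Abcb1b, the described genes with the largest differences from vehicle shared by both exposed groups among those whose libraries did not overlap (Abcb1b was below the filter on low values in vehicle rats). They come from RefSeq on build GRCr8, which is not the authors' build, and read 5′ to 3′ on the strand of the gene, with motif matches on either strand in capitals. Nrarp is at chr3:28390495-28390744 (+), Cdkn1a at chr20:7150682-7150931 (+) and Abcb1b at chr4:26280030-26280279 (-).
Nrarp: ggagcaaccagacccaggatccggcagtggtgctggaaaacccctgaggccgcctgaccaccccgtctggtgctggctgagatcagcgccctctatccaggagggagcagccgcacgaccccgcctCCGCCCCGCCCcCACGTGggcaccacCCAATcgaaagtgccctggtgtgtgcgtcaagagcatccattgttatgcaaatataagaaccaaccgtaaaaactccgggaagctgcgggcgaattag
Cdkn1a: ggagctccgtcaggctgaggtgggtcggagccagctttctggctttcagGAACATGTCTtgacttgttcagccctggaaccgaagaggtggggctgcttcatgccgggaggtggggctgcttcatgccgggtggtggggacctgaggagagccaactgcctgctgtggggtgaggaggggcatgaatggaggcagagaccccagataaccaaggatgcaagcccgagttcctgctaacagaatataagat
Abcb1b: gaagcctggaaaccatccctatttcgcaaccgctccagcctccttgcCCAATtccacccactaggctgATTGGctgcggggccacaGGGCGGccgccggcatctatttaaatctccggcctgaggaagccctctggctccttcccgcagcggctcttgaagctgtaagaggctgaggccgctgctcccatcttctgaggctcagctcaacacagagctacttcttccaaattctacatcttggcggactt
The motifs searched were the GC box GGGCGG (in 30.5% of 33469 rat promoter windows of the same length), the CCAAT box CCAAT (34.0%), the E-box CACGTG (5.59%), the core TGGGAA of the Notch effector RBPJ (22.1%) and the p53 half-site (6.64%), each on both strands. The Nrarp window held 2 GC boxes, at -124 and -119, which overlap by 1 base, an E-box at -112 and a CCAAT box at -98, counted from the start site. The Cdkn1a window held 1 p53 half-site at -201. The Abcb1b window held CCAAT boxes at -203 and -182 and a GC box at -164, and TGGGAA was in none of the 3 windows. For each gene 1 listed start site was used and others were not examined, so the positions hold for that start only. A match is a description of letters only.

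The next smallest p-values among lower genes belonged to Hcn2 and Trnp1, and neither passed. Hcn2, a pacemaker channel of sensory neurons, was at 24.2, 24.7, 27.7 and 23.4 FPKM with CYM-5478, at 15.8, 19.2, 19.2 and 15.5 FPKM with cisplatin alone, and at 30.2, 35.6, 27.8 and 31.8 FPKM in vehicle rats. Its groups did not overlap, though 1 CYM-5478 library nearly met the lowest vehicle library, and the pooled log2 difference was -0.57 (SE 0.08, limma adjusted p = 0.121). Trnp1, a nuclear protein, was at 40.1, 52.7, 58.4 and 42.3 FPKM with CYM-5478, at 32.5, 32.2, 29.7 and 34 FPKM with cisplatin alone, and at 62.7, 76.9, 54.9 and 63.1 FPKM in vehicle rats. Here the highest CYM-5478 library lay inside the vehicle range, and the pooled log2 difference was -0.70 (SE 0.11, limma adjusted p = 0.135). For both genes the level with CYM-5478 was higher than with cisplatin alone, by 0.52 (95% interval 0.31 to 0.72) for Hcn2 and by 0.57 (0.30 to 0.84) for Trnp1 on the log2 scale (limma adjusted p = 0.0395 each). The other lower genes of smallest p were Pi4k2a, a phosphatidylinositol kinase (-0.40), Gdpd1 (-0.41), Exoc1, a subunit of the exocyst (-0.31), Harbi1 (-0.29) and Zdhhc8, a palmitoyltransferase (-0.30). None of these 5 passed (limma adjusted p = 0.135 each).

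On the higher side, the 8 genes of smallest p had pooled log2 differences of 0.24 to 0.44 and none passed (limma adjusted p = 0.135 each). Lrp4, a receptor of the LDL receptor family, was at 17.9, 18.2, 16.5 and 17.7 FPKM with CYM-5478, at 20.8, 19.7, 21.9 and 20.2 FPKM with cisplatin alone and at 15.7, 14.4, 15.3 and 16.2 FPKM in vehicle rats. The 3 groups of Lrp4 libraries did not overlap, with CYM-5478 between the others. Col5a2, a chain of collagen V, was at 78.1, 80, 80.9 and 82.4 FPKM with CYM-5478, at 93.8, 90.5, 96.3 and 107 FPKM with cisplatin alone and at 74.6, 69.7, 67.4 and 77.6 FPKM in vehicle rats, also with CYM-5478 in the middle. The level with CYM-5478 was lower than with cisplatin alone for Lrp4 (-0.23, limma adjusted p = 0.0406), Uaca (-0.25, limma adjusted p = 0.0442) and Col5a2 (-0.27, limma adjusted p = 0.0395). The others were Pnisr, an SR-related splicing protein (0.24), Pamr1 (0.44), H1f0, the linker histone H1.0 (0.37), Rpl36al, a ribosomal protein gene with near-identical copies whose reads may be split between them (0.25), and a gene with a clone-based name (0.40).

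**Figure D1:**
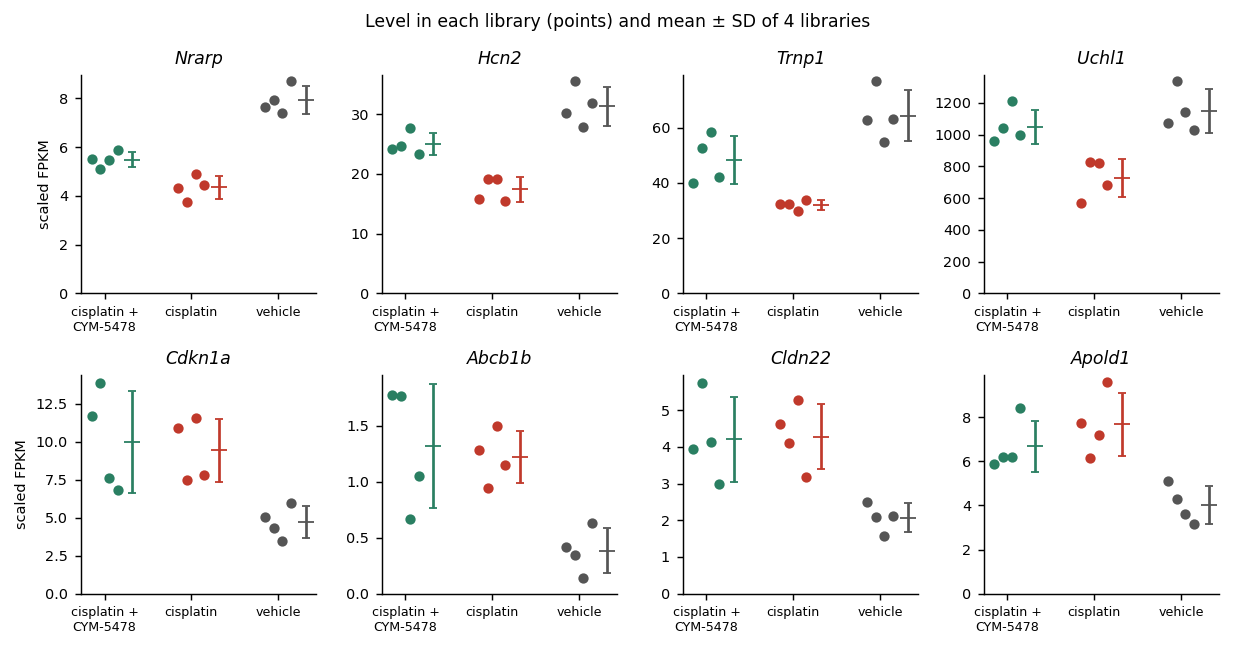
Scaled FPKM (y axis, linear and starting at 0) of 8 genes in every library, with points for libraries and bars for the mean ± SD of 4 libraries in the groups cisplatin with CYM-5478, cisplatin and vehicle. Nrarp, Hcn2, Trnp1 and Uchl1 (upper row) were lowest with cisplatin alone, whereas Cdkn1a, Abcb1b, Cldn22 and Apold1 (lower row) had means above vehicle in both exposed groups.

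The pooled difference and the difference between the exposed groups are uncorrelated contrasts, because both exposed groups have the same number of rats and equal weight. Between cisplatin with CYM-5478 and cisplatin, 941 genes passed (5.62%), 759 higher (4.53%) and 182 lower (1.09%) with CYM-5478, a split that was 2528 higher and 49 lower with TPM scaling. That count was 0 when cisplatin replicate 1 or 4, CYM-5478 replicate 2, 3 or 4, or vehicle replicate 1 was left out, 391 without vehicle replicate 3 and 582 without vehicle replicate 4. Among the 1672 genes lower in exposed rats at unadjusted p under 0.05, 1512 (90.4%) were nearer to vehicle with CYM-5478 than without it, as were 66.4% of all 8210 tested genes with a negative pooled difference, and the difference passed for 546, toward vehicle for 543 of them. Their median log2 change was -0.10 with CYM-5478 and -0.40 with cisplatin alone, both set against the same vehicle rats. Among the 1187 higher genes, 983 (82.8%) were nearer to vehicle with CYM-5478, as were 72.2% of all 8543 tested genes with a positive pooled difference, and the difference passed for 54, toward vehicle for 52. Their median log2 change was 0.16 with CYM-5478 and 0.29 with cisplatin alone. Tested singly against the shared vehicle rats, 0 genes passed with CYM-5478 (0.0%, lowest limma adjusted p 0.631, and 970 genes, 5.79%, at unadjusted p under 0.05, of which 512 or 3.06% higher and 458 or 2.73% lower), and 1794 passed with cisplatin alone (10.7%, of which 457 or 2.73% higher and 1337 or 7.98% lower).

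**Figure D2:**
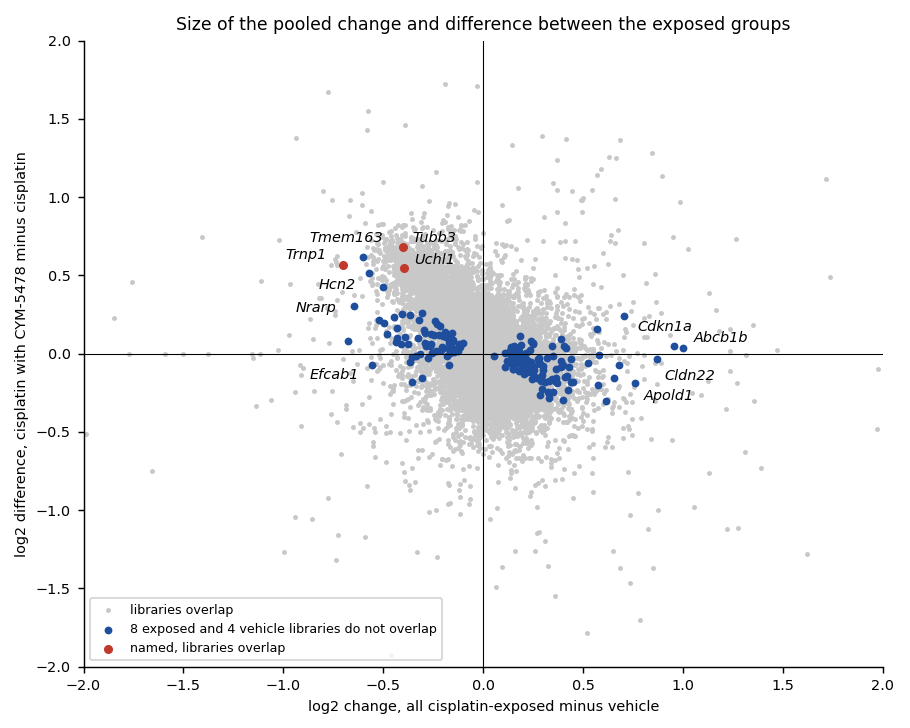
Each point is a tested gene, with the pooled log2 change of exposed minus vehicle rats on the x axis and the log2 difference of cisplatin with CYM-5478 minus cisplatin on the y axis, and 22 genes lie beyond the axes at 2. Blue genes, whose 8 exposed libraries do not overlap the 4 vehicle libraries, lie near 0 on the y axis for Cdkn1a, Abcb1b and Cldn22, while Hcn2 and Tmem163 and the overlapping Trnp1, Uchl1 and Tubb3 lie above 0.5 at negative x.

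The 8 exposed and 4 vehicle libraries did not overlap for 185 genes (1.1%), of which 118 were higher (0.704%) and 67 lower (0.4%) in exposed rats. The direction of this split depended on the scaling and on 1 library, with 48 higher and 171 lower under TPM scaling and 190 higher and 275 lower without CYM-5478 replicate 3. Of the 185, 151 have symbols that name a described gene, and 180 had an unadjusted limma p under 0.05. In each gene the retained difference was taken as the smaller of the changes with and without CYM-5478. It had a median size of 0.20 on the log2 scale, a lowest size of 0.05, and was over 0.5 for 10 genes. The median log2 change of the 118 higher genes was 0.20 with CYM-5478 and 0.29 without it, and that of the 67 lower genes was -0.23 with CYM-5478 and -0.30 without it. The change was smaller with CYM-5478 for 93 of the 118 (78.8%) and 57 of the 67 (85.1%). It was smaller for 72.2% and 66.4% of all tested genes with positive and negative pooled differences. The difference between the exposed groups passed for 4 of the 118 and 3 of the 67, each toward vehicle. Over all tested genes it passed for 1.09% as lower and 4.53% as higher with CYM-5478. The genes described next were ranked among the 151 with symbols of described genes, and the others could hold larger retained differences. They are the 15 in each direction with the largest retained difference, chosen after their values were seen. Apart from Nrarp none of them passed the pooled test.

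Cdkn1a was at 11.7, 13.9, 7.65 and 6.81 FPKM with CYM-5478, at 10.9, 7.49, 11.6 and 7.82 FPKM with cisplatin alone, and at 5.08, 4.36, 3.49 and 5.96 FPKM in vehicle rats. Every exposed library was above every vehicle library, and the exposed groups overlapped each other. The pooled log2 difference was 0.95 (SE 0.20, limma adjusted p = 0.135), with 0.98 (SE 0.23) in rats with CYM-5478 and 0.93 (SE 0.23) in rats with cisplatin alone. The exposed groups differed by 0.05 (95% interval -0.45 to 0.55, limma adjusted p = 0.924). Abcb1b, a P-glycoprotein drug efflux pump, was at 1.78, 1.77, 0.669 and 1.05 FPKM with CYM-5478, at 1.28, 0.945, 1.5 and 1.15 FPKM with cisplatin alone, and at 0.413, 0.35, 0.143 and 0.628 FPKM in vehicle rats. CYM-5478 replicate 3 came within a small margin of the highest vehicle library, and the pooled log2 difference was 1.00 (SE 0.20). With a vehicle mean of 0.383 FPKM, Abcb1b passed the filter on low values only through the exposed groups, where it was high, so its values are a description. Its close paralog Abcb1a, with which reads may be shared, was at 14.7, 13.7, 10.9 and 13 FPKM with CYM-5478, at 17.1, 13.3, 15.7 and 13.7 FPKM with cisplatin alone and at 12.3, 12.2, 11.9 and 10.9 FPKM in vehicle rats, and these overlapped (pooled log2 difference 0.23, SE 0.08).

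Cldn22, a claudin of tight junctions, was at 3.95, 5.75, 4.12 and 2.99 FPKM with CYM-5478, at 4.61, 4.09, 5.27 and 3.17 FPKM with cisplatin alone, and at 2.51, 2.1, 1.56 and 2.12 FPKM in vehicle rats. The log2 difference from vehicle was 0.85 with CYM-5478 and 0.89 without it (SE 0.19 each), and the exposed groups differed by -0.04 (95% interval -0.45 to 0.37). Apold1, an early response gene of blood vessel endothelium, was at 5.89, 6.2, 6.21 and 8.41 FPKM with CYM-5478, at 7.75, 6.17, 7.2 and 9.6 FPKM with cisplatin alone, and at 5.1, 4.28, 3.6 and 3.15 FPKM in vehicle rats. Its log2 difference from vehicle was 0.67 with CYM-5478 and 0.85 without it (SE 0.16 each). Both genes were thus above vehicle in every exposed library, with exposed groups that overlapped.

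The other 11 of the higher genes had smaller log2 differences from vehicle in both exposed groups. Egr2, an early growth response factor that Schwann cells need for myelination, differed by 0.49 with CYM-5478 and 0.55 without it (SE 0.19 each). Gadd45b, a stress and DNA damage response gene, was at 11.6, 12.8, 11.9 and 14.9 FPKM with CYM-5478, at 14.9, 13.6, 14.8 and 13.2 FPKM with cisplatin alone and at 10.5, 11.2, 10.7 and 7.59 FPKM in vehicle rats, so that the lowest exposed library lay close to the highest vehicle library. Spon2, a secreted matrix protein, differed by 0.48 with CYM-5478 and 0.67 without it, and Prodh, proline dehydrogenase, by 0.36 with CYM-5478 and 0.41 without it. Il2ra, a chain of the interleukin-2 receptor, was low, at 0.777, 1.11, 1.22 and 1.23 FPKM with CYM-5478, 1.08, 1.04, 1.13 and 0.902 FPKM with cisplatin alone and 0.769, 0.711, 0.489 and 0.717 FPKM in vehicle rats. The remaining genes were Map3k6, a kinase of the MAP kinase cascade, Pamr1, Mrpl20, a mitochondrial ribosomal protein, Tceanc, Taf15, an RNA-binding protein, and Ubxn7, a cofactor of the p97 ATPase, with log2 differences of 0.31 to 0.44 with CYM-5478 and 0.34 to 0.53 without it.

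**Figure D3:**
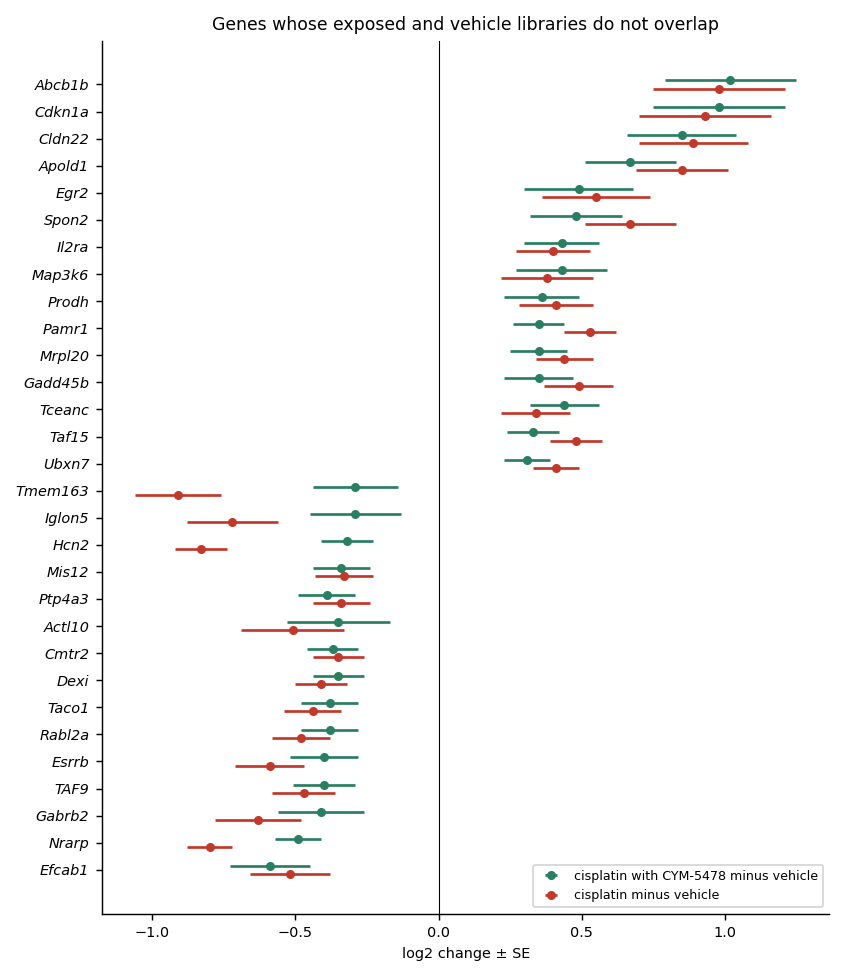
Log2 change ± SE (x axis) against the shared vehicle rats, with cisplatin and CYM-5478 (green) and with cisplatin alone (red). Shown are the 15 higher and 15 lower described genes with the largest retained difference among those whose exposed and vehicle libraries did not overlap. Abcb1b, Cdkn1a and Cldn22 reached 0.85 to 1.02 in both groups, and among lower genes Tmem163, Iglon5 and Hcn2 were further from 0 with cisplatin alone.

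Among lower genes with described symbols, Efcab1, an EF-hand protein, had the largest retained difference. It was at 2.38, 1.39, 2.18 and 2.08 FPKM with CYM-5478, at 1.76, 2.28, 2.3 and 2.09 FPKM with cisplatin alone and at 2.9, 3.14, 3 and 3.96 FPKM in vehicle rats, a log2 difference of -0.59 with CYM-5478 and -0.52 without it (SE 0.14 each). Nrarp was next, and was followed by Gabrb2, a subunit of the GABA-A receptor (-0.41 with CYM-5478 and -0.63 without it), TAF9, a subunit of the transcription factor TFIID (-0.40 with CYM-5478 and -0.47 without it), and Esrrb, an orphan nuclear receptor (-0.40 with CYM-5478 and -0.59 without it). In Dexi, a transcript named for its induction by dexamethasone, every exposed library was between 15.5 and 19.9 FPKM and every vehicle library between 21 and 27.7 FPKM. Ptp4a3, a phosphatase on the p53 target list, was at 11.5, 13.4, 10.1 and 12.3 FPKM with CYM-5478, at 11, 13.1, 12.5 and 12.5 FPKM with cisplatin alone and at 17.6, 15.5, 15.9 and 13.7 FPKM in vehicle rats, which put it in the direction opposite to that of Cdkn1a. The exposed groups of Ptp4a3 differed by -0.06 (95% interval -0.27 to 0.16).

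Taco1, a translational activator of mitochondrial cytochrome oxidase, Rabl2a, a small GTPase of cilia, Cmtr2, an mRNA cap methyltransferase, Mis12, a kinetochore protein, and Actl10 had log2 differences of -0.38 to -0.34 with CYM-5478 and -0.51 to -0.33 with cisplatin alone. Tmem163, a zinc transporter of membranes, stood apart from these. It was at 7.34, 7.42, 9.01 and 8.71 FPKM with CYM-5478, at 3.72, 6.34, 6.27 and 4.55 FPKM with cisplatin alone and at 9.07, 12, 10 and 9.22 FPKM in vehicle rats. The exposed groups differed by 0.62 (95% interval 0.28 to 0.95, limma adjusted p = 0.0428), so that the exposed libraries were all below vehicle and those with cisplatin alone lowest. Iglon5, a neuronal adhesion molecule, had the same order of group means, with a difference between exposed groups that did not pass (0.42, limma adjusted p = 0.134).

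Of 35 tested p53 target and DNA damage genes, 0 passed the pooled test. At unadjusted p under 0.05, 4 (11.4%) were higher and 3 (8.57%) lower, near the 7.09% higher and 9.98% lower of all tested genes, and the median log2 difference was 0.07. Cdkn1a, Gadd45b and Sesn1 did not overlap vehicle on the higher side, and Ptp4a3 did not on the lower side. Over all tested genes, 118 (0.704%) did not overlap on the higher side and 67 (0.4%) on the lower side. Sesn1, a stress-induced sestrin, was at 18.1, 17.8, 17.4 and 18.2 FPKM with CYM-5478, at 20.1, 19.1, 18.3 and 19.2 FPKM with cisplatin alone and at 16.2, 17.1, 17.2 and 16.3 FPKM in vehicle rats, a separation of small size (pooled log2 difference 0.15, SE 0.04). Xpc, which recognises DNA lesions for nucleotide excision repair, was at 8.63, 8.24, 8.46 and 8.77 FPKM with CYM-5478, at 8.07, 9.31, 8.98 and 9.86 FPKM with cisplatin alone and at 7.56, 7.3, 7.4 and 8.08 FPKM in vehicle rats. The lowest cisplatin library of Xpc fell just inside the vehicle range. Over 34 genes of nucleotide excision and crosslink repair the median was -0.01, with 2 (5.88%) higher and 1 (2.94%) lower at unadjusted p under 0.05. In 28 genes of the BCL2 family and caspases, which govern cell death, 4 (14.3%) were higher and 0 lower (median 0.05). The 4 were Casp1 (0.42, SE 0.14), Bcl2l1, the survival factor Bcl-xL (0.22, SE 0.07), Bmf (0.17, SE 0.06) and Bcl2 (0.16, SE 0.05). Atf3, a stress and nerve injury factor, had a pooled log2 difference of 0.04 (SE 0.14). Of 38 cell cycle genes 3 (7.89%) were higher and 0 lower (median 0.13), among them Pcna, the sliding clamp of DNA replication and repair (0.23, SE 0.07).

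Of 19 tested platinum and drug transporters, 0 passed, 3 (15.8%) were higher and 2 (10.5%) lower at unadjusted p under 0.05, and the median was 0.05. Over all genes the shares were 7.09% higher and 9.98% lower. The 3 higher genes include Abcb1b, which passed the filter on low values only through the exposed groups, where it was high. Slc31a1, the copper transporter CTR1 that carries cisplatin into cells, was at 13.2, 13.2, 14.7 and 15.5 FPKM with CYM-5478, 13.4, 16, 14.2 and 14.5 FPKM with cisplatin alone and 14.4, 14.7, 12.8 and 15.3 FPKM in vehicle rats. These overlapped throughout (pooled log2 difference 0.01, SE 0.07, with its sign turned by TPM scaling). Slc22a2, the organic cation transporter OCT2, was listed near the limit of the filter and had a pooled log2 difference of 0.05 (SE 0.30). Of 31 glutathione and antioxidant genes 5 (16.1%) were higher and 1 (3.23%) lower (median 0.05), and Gstp1, a glutathione S-transferase, was at 147, 153, 169 and 165 FPKM with CYM-5478, at 159, 175, 158 and 194 FPKM with cisplatin alone and at 142, 143, 142 and 141 FPKM in vehicle rats. Gstp1 did not overlap vehicle in any exposed library, at a pooled log2 difference of 0.21 (SE 0.06).

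The median log2 difference from vehicle of 19 glucocorticoid-responsive genes was 0.29 with CYM-5478 and 0.36 without it, while the median over all tested genes was -0.001 with CYM-5478 and 0.019 without it. None passed the pooled test, 8 (42.1%, against 7.09% of all genes) were higher and 1 (5.26%, against 9.98%) lower at unadjusted p under 0.05, and 17 of the 19 had a positive pooled difference. The summed level of the list overlapped between groups, at 586 to 825 FPKM with CYM-5478, 700 to 889 FPKM with cisplatin alone and 519 to 671 FPKM in vehicle rats. Per1, a clock gene with glucocorticoid response elements, was at 15.7, 32, 29.5 and 44.6 FPKM with CYM-5478, at 24.9, 25, 20.5 and 26.3 FPKM with cisplatin alone and at 16.5, 16.4, 11.7 and 14 FPKM in vehicle rats, so that only CYM-5478 replicate 1 was within the vehicle range (pooled log2 difference 0.83, SE 0.21). Fkbp5, a co-chaperone of the glucocorticoid receptor, was at 10.5, 18.4, 13.1 and 17.2 FPKM with CYM-5478, at 12, 10.2, 11.2 and 11.2 FPKM with cisplatin alone and at 8.66, 7.98, 8.02 and 11.8 FPKM in vehicle rats, with overlap through vehicle replicate 4. Klf9 had a pooled log2 difference of 0.41 (SE 0.12). Cebpb, a transcription factor of acute phase responses, lay the other way, at 6.8, 7.27, 7.06 and 7.89 FPKM with CYM-5478, at 18.4, 4.97, 4.31 and 13.5 FPKM with cisplatin alone and at 16.2, 15.5, 13.9 and 13.3 FPKM in vehicle rats, and cisplatin replicates 1 and 4 were within or above the vehicle range. Over 18 circadian clock genes, which hold Per1 as well, the median was 0.09 with CYM-5478 and 0.13 without it, and the summed level of the list ranged from 184 to 358 FPKM with CYM-5478, from 204 to 346 FPKM with cisplatin alone and from 177 to 337 FPKM in vehicle rats. The hour of tissue collection is not given in the sources used here.

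The median log2 difference from vehicle of 29 interferon-stimulated genes was 0.32 with CYM-5478 and 0.20 without it. All 29 had a positive pooled difference, 7 (24.1%, against 7.09% of all genes) were higher at unadjusted p under 0.05, and 0 passed. The summed level of the list overlapped between groups, at 523 to 872 FPKM with CYM-5478, 472 to 687 FPKM with cisplatin alone and 444 to 548 FPKM in vehicle rats. Bst2, which tethers enveloped viruses, was at 62.4, 64.3, 87.8 and 64.5 FPKM with CYM-5478, at 68.1, 75.1, 65.4 and 102 FPKM with cisplatin alone and at 62.7, 49.8, 45.3 and 62.5 FPKM in vehicle rats, and 1 exposed library was below the highest vehicle library. Ifit2, an interferon-induced inhibitor of translation, had a pooled log2 difference of 0.45 (SE 0.18). Macrophage markers had a median of 0.16, with 3 of 20 (15%) higher at unadjusted p under 0.05, and Cd163, a scavenger receptor of resident macrophages, was at 10.8, 12.9, 8.94 and 11.1 FPKM with CYM-5478, at 9.9, 11.6, 7.58 and 13.6 FPKM with cisplatin alone and at 10.1, 7.68, 5.72 and 6.54 FPKM in vehicle rats. Vehicle replicate 1 lay within the exposed range of Cd163, and vehicle replicate 2 was above cisplatin replicate 3 only (pooled log2 difference 0.50, SE 0.17). The summed level of the 20 macrophage markers ranged from 485 to 516 FPKM with CYM-5478, from 505 to 715 FPKM with cisplatin alone and from 404 to 541 FPKM in vehicle rats. The part of macrophage number in the interferon values was not tested.

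Over 22 pan-neuronal genes the median log2 difference from vehicle was -0.02 with CYM-5478 and -0.62 without it. None passed the pooled test, and 15 (68.2%) were lower and 0 higher at unadjusted p under 0.05, where the shares over all tested genes were 9.98% lower and 7.09% higher. The test of cisplatin with CYM-5478 against cisplatin passed for 11 of the 22, each higher with CYM-5478, as 4.53% of all genes were. Uchl1, a neuronal ubiquitin hydrolase, was at 959, 1040, 1210 and 1000 FPKM with CYM-5478, at 572, 829, 820 and 682 FPKM with cisplatin alone and at 1070, 1340, 1140 and 1030 FPKM in vehicle rats. The CYM-5478 libraries overlapped the vehicle libraries, and those with cisplatin alone lay below both. The pooled log2 difference of Uchl1 was -0.39 (SE 0.11, limma adjusted p = 0.166), and the exposed groups differed by 0.55 (95% interval 0.26 to 0.83, limma adjusted p = 0.0406). Tubb3, neuronal β-tubulin, differed by 0.68 between the exposed groups (95% interval 0.34 to 1.02, limma adjusted p = 0.0395), with a log2 change of -0.06 with CYM-5478 and -0.74 without it. Pou4f1, the sensory neuron transcription factor Brn3a, was at 18.8, 23.3, 22.4 and 18.4 FPKM with CYM-5478, at 9.84, 14.5, 14.2 and 13.7 FPKM with cisplatin alone and at 20.8, 27.7, 21.9 and 21.4 FPKM in vehicle rats.

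The other neuronal lists had medians in the same order. Over 24 nociceptor genes the median was 0.07 with CYM-5478 and -0.46 without it, with 7 (29.2%) lower and 0 higher in the pooled comparison at unadjusted p under 0.05. Over 18 mechanoreceptor and proprioceptor genes it was -0.11 with CYM-5478 and -0.35 without it, and all 18 had a negative pooled difference. All 23 sodium and calcium channel genes had a negative pooled difference, at a median of -0.03 with CYM-5478 and -0.45 without it. For 32 potassium and HCN channel genes the medians were -0.06 with CYM-5478 and -0.53 without it. Hcn2 was the only one of the 32 whose exposed and vehicle libraries did not overlap, beside 1.1% of all tested genes. Kcnq3, a subunit of the M current, had a pooled log2 difference of -0.56 (SE 0.17).

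Among 32 genes of synaptic vesicles and exocytosis, 20 (62.5%) were lower and 1 (3.12%) higher at unadjusted p under 0.05, with medians of -0.04 with CYM-5478 and -0.59 without it. Syn2, a synapsin that ties synaptic vesicles to actin, was at 32, 36.4, 43.1 and 36.9 FPKM with CYM-5478, at 19.4, 27.4, 27.5 and 23.5 FPKM with cisplatin alone and at 45.2, 46, 37.7 and 38.7 FPKM in vehicle rats. Among 25 genes of axon survival and transport, 19 (76.0%) were lower and 1 (4.0%) higher, with medians of -0.02 with CYM-5478 and -0.35 without it. Nmnat2, the axonal enzyme of NAD synthesis on which axon survival depends, had a pooled log2 difference of -0.34 (SE 0.09), and its mitochondrial relative Nmnat3 was the higher one (0.32, SE 0.12). In the 7 neuronal lists, which overlap in what they measure, 0 genes passed the pooled test.

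**Figure D4:**
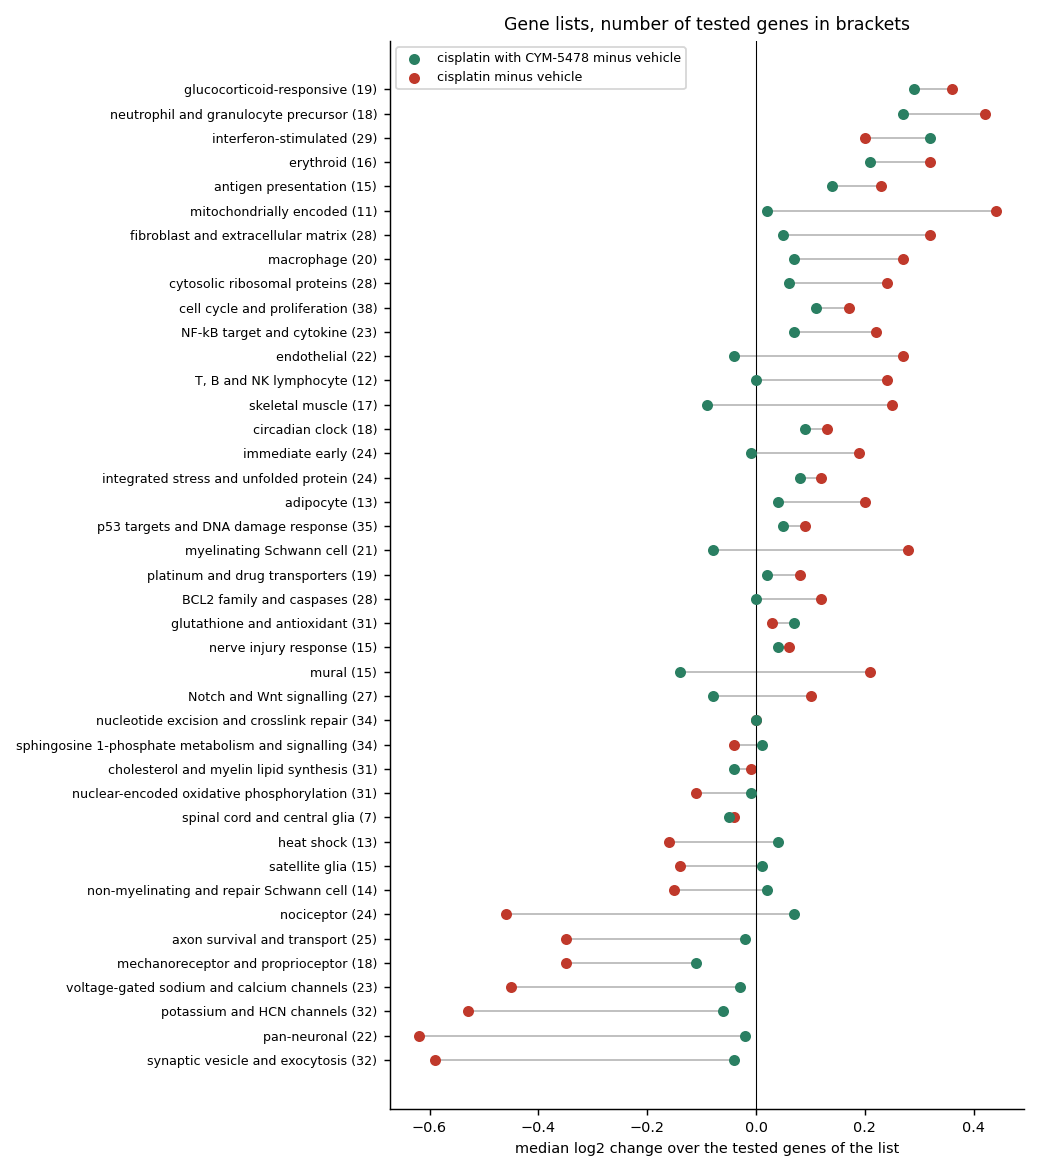
Median log2 change against the shared vehicle rats (x axis) over the tested genes of each list with 5 or more such genes, for cisplatin with CYM-5478 (green) and cisplatin alone (red), ordered by the median of the pooled change. Neuronal lists at the bottom lie near 0 with CYM-5478 and between -0.35 and -0.62 with cisplatin alone, while the glucocorticoid, interferon, neutrophil and erythroid lists lie at 0.20 or above in both groups.

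Summed marker levels of several cell types went along with these values, and their part in the results was not tested. The summed level of pan-neuronal markers ranged from 5900 to 7420 FPKM with CYM-5478, from 2980 to 4990 FPKM with cisplatin alone and from 5740 to 8150 FPKM in vehicle rats. That of 28 fibroblast and matrix genes ranged from 8140 to 8630 FPKM with CYM-5478, from 10200 to 11500 FPKM with cisplatin alone and from 7400 to 9290 FPKM in vehicle rats, so the cisplatin group alone lay outside the vehicle range on both lists. Among the matrix genes 11 (39.3%) were higher and 0 lower at unadjusted p under 0.05, and 0 passed. Col6a1, a chain of collagen VI, was at 115 FPKM in each of the 4 libraries with CYM-5478, at 124, 131, 147 and 146 FPKM with cisplatin alone and at 109, 90.3, 85.7 and 112 FPKM in vehicle rats, with no overlap between exposed and vehicle rats. Col4a1, a chain of basement membrane collagen IV, had a pooled log2 difference of 0.27 (SE 0.06). Over 28 cytosolic ribosomal protein genes, whose copies elsewhere in the genome can share reads, all pooled differences were positive and 14 (50.0%) had an unadjusted p under 0.05, at medians of 0.06 with CYM-5478 and 0.24 without it, for instance Rpl23 (pooled 0.43, SE 0.13).

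Myelinating Schwann cell genes had a median of -0.08 with CYM-5478 and 0.28 without it over 21 genes, endothelial genes of -0.04 with CYM-5478 and 0.27 without it over 22 genes, and satellite glia genes of 0.01 with CYM-5478 and -0.14 without it over 15 genes. Kcnj10, the potassium channel Kir4.1 of satellite glia, was at 13.6, 13.9, 16.7 and 14.4 FPKM with CYM-5478, at 10.3, 12.3, 11.6 and 13 FPKM with cisplatin alone and at 16.5, 16.7, 15.8 and 18.3 FPKM in vehicle rats, and 1 CYM-5478 library was within the vehicle range (pooled log2 difference -0.35, SE 0.07). The satellite glia list was split, with 2 (13.3%) higher and 2 (13.3%) lower of 15 at unadjusted p under 0.05. Glul (pooled 0.15, SE 0.05) and Slc1a3 (0.21, SE 0.09) were higher, and Sox2 (-0.17, SE 0.07) was lower like Kcnj10. The 11 mitochondrially encoded genes had medians of 0.02 with CYM-5478 and 0.44 without it. Blood and muscle markers varied most between rats of 1 group. The 20 neutrophil markers summed to 269 to 2940 FPKM with CYM-5478, 610 to 2420 FPKM with cisplatin alone and 528 to 1440 FPKM in vehicle rats. Erythroid markers summed to 5270 to 18400 FPKM with CYM-5478, 8760 to 30700 FPKM with cisplatin alone and 8150 to 13900 FPKM in vehicle rats. Skeletal muscle markers summed to 51.2 to 76.2 FPKM with CYM-5478, 30.9 to 136 FPKM with cisplatin alone and 52.5 to 65.9 FPKM in vehicle rats, with the highest value in cisplatin replicate 2. The median log2 difference from vehicle was 0.27 with CYM-5478 and 0.42 without it for the neutrophil list, and 0.21 with CYM-5478 and 0.32 without it for the erythroid list. No gene of the neutrophil list had an unadjusted p under 0.05. Of 16 tested erythroid genes 13 had a positive pooled difference, but 0 were higher and 2 (12.5%) lower at unadjusted p under 0.05. The sign of the median of the muscle list was positive with all libraries (0.11) and negative without cisplatin replicate 2 (-0.06).

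Of 27 tested genes of Notch and Wnt signalling, Nrarp passed as lower and the other 26 did not pass, at a list median of 0.01. With the exposed rats fitted as 1 group, Nrarp did not pass either (limma adjusted p = 0.23). Hey1, a transcriptional repressor that Notch induces, was at 9.15, 9.62, 8.25 and 9.14 FPKM with CYM-5478, at 10, 8.85, 9.79 and 10.3 FPKM with cisplatin alone and at 11.6, 11.6, 13.6 and 9.44 FPKM in vehicle rats. Vehicle replicate 4 overlapped the exposed libraries, and the pooled log2 difference was -0.28 (SE 0.08, limma adjusted p = 0.172). Jag2, a Notch ligand, was at 12.1, 13.2, 16.4 and 12.2 FPKM with CYM-5478, at 8.23, 10.3, 10.6 and 8.77 FPKM with cisplatin alone and at 14.5, 17.1, 14 and 15.1 FPKM in vehicle rats, and here the exposed groups differed by 0.48 (95% interval 0.24 to 0.72, limma adjusted p = 0.0395). Immediate early genes, which are transcribed soon after a stimulus, had 3 (12.5%) higher and 3 (12.5%) lower of 24 at unadjusted p under 0.05, with Egr2 above vehicle and Egr3 (pooled log2 difference -0.46, SE 0.14) and Klf2 (-0.49, SE 0.19) below it. Klf2, a flow-responsive factor of endothelium, was at 23.5, 27.7, 30.7 and 19.1 FPKM with CYM-5478, at 35.7, 33.4, 25.6 and 46.3 FPKM with cisplatin alone and at 56.3, 39.8, 27.8 and 46.6 FPKM in vehicle rats.

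The sphingosine 1-phosphate genes, among them the receptor that CYM-5478 acts on, showed no pooled difference that passed. S1pr2, the gene of S1P2, was at 13.5, 11.2, 12.8 and 12.3 FPKM with CYM-5478, at 17.2, 13.5, 14.6 and 17 FPKM with cisplatin alone and at 13.8, 12.5, 13.6 and 15.1 FPKM in vehicle rats. Its pooled log2 difference was 0.02 (SE 0.08, with a sign that turned under TPM scaling), and the exposed groups differed by -0.31 (95% interval -0.51 to -0.12), which did not pass (limma adjusted p = 0.0593). S1pr1 (0.17, SE 0.11), S1pr3 (-0.15, SE 0.11) and S1pr4 (0.17, SE 0.28) did not pass either, and S1pr5, at 0.08 to 0.594 FPKM over all libraries, was below the filter. Over 34 genes of this list the median was 0.01 with CYM-5478 and -0.04 without it, with 3 (8.82%) higher and 4 (11.8%) lower at unadjusted p under 0.05. Acer2, an alkaline ceramidase that yields sphingosine, had a pooled log2 difference of 0.34 (SE 0.09), 0.25 with CYM-5478 and 0.42 without it. Sgpp2, a sphingosine 1-phosphate phosphatase, was at 19.2, 23, 27.8 and 21.7 FPKM with CYM-5478, at 10.4, 14.6, 15.3 and 10.9 FPKM with cisplatin alone and at 21.6, 26.2, 21.5 and 20.7 FPKM in vehicle rats, and the exposed groups differed by 0.82 (95% interval 0.52 to 1.13, limma adjusted p = 0.0395).

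Of 24 genes of the integrated stress and unfolded protein responses, 3 (12.5%) were higher and 2 (8.33%) lower at unadjusted p under 0.05, at medians of 0.08 with CYM-5478 and 0.12 without it. Trib3, a pseudokinase induced by endoplasmic reticulum stress, was at 1.07, 0.907, 1.36 and 0.991 FPKM with CYM-5478, at 1.27, 0.5, 1.01 and 1.3 FPKM with cisplatin alone and at 0.912, 0.721, 0.225 and 0.396 FPKM in vehicle rats. Cisplatin replicate 2 was within the vehicle range of Trib3, and CYM-5478 replicate 2 just below its top. Of 31 cholesterol and myelin lipid genes 1 (3.23%) was higher and 4 (12.9%) lower, and Pmvk, a kinase of cholesterol synthesis, was the higher one, at 63.2, 55.4, 53.9 and 61.4 FPKM with CYM-5478, 57.8, 68.8, 60 and 54 FPKM with cisplatin alone and 48.5, 51.1, 51.6 and 51.9 FPKM in vehicle rats, with no overlap between exposed and vehicle rats. In this list 21 genes had a negative pooled difference and 10 a positive one, at medians of -0.04 with CYM-5478 and -0.01 without it. The summed level of the list was 3810 to 5610 FPKM with CYM-5478, below the 6070 to 7710 FPKM of vehicle rats. With cisplatin alone that sum was 5030 to 8410 FPKM.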

How the data were processed

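Directional libraries were made from rRNA-depleted ganglion RNA of 12 rats, per the labels' protocols. FPKM for each transcript in each library were deposited as 1 table. The submitters' processing notes list STAR 2.7.8a, Bowtie2 2.0.6, DESeq2, bcl2fastq 2.20, FastQC and the build Rnor_6.0 with no role or order. The program behind the FPKM and any filter are not given in the sources used here. The table used here has 30275 transcripts. Its size is below the one listed, and gene sums may lack transcripts for that reason. Without counts the depth is unknown and intervals for counting error cannot be formed.

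FPKM were summed by gene (25252 genes) and scaled by median ratios (factors 0.9983 to 1.012). Limma 3.58.1 in R 4.3.3 fitted 3 groups to log2(FPKM + 0.5) with a variance trend (9 residual degrees of freedom), and p-values were adjusted over all 16753 genes tested, also for single contrasts. Replicates are numbered as in the sample descriptions, because titles number the rats differently. The gene lists (42, with 975 symbols, 914 matched by symbol, 18 by synonym and 43 unmatched) and the members were chosen with earlier results of these data known. Named genes were the 8 smallest p in each direction (fewer than 10 genes passed), genes past the threshold on a list, and Cdkn1a, Atf3, S1pr1 to S1pr5, Slc31a1, Slc22a2, Uchl1 and Tubb3. All other named genes were chosen after their values were seen. The fit was tested on simulated data in which genes are independent, unlike real libraries. Alternatives were other pseudocounts (0.1 and 1), filters (none and 2 FPKM), scalings, array weights, the exposed rats as 1 group, replicate blocks and each library left out, and, added after seeing the data, cisplatin replicates 2 and 3 left out and protein-coding genes alone. Of the tested genes, 3289 have clone-based names or none and are counted but not described. Some list genes are not reported here. Single sums were compared in SciPy 1.17.1 by exact permutation.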

Additional observations from a re-analysis of the deposited data

Results flagged for a closer look

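Of 288 groups of 4 libraries examined for the named genes and marker sums, 12 held 1 library far from the other 3, which chance gives in about 1 in 20 groups. The libraries with CYM-5478 were those of Rpl36al (151.0 FPKM, replicate 1, low), Gabrb2 (1.15 FPKM, replicate 2, low), Bst2 (87.8 FPKM, replicate 3, high), Apold1 (8.41 FPKM, replicate 4, high), Egr3 (1.4 FPKM, replicate 4, low) and the skeletal muscle marker sum (76.2 FPKM, replicate 1, high). With cisplatin alone it was Dexi (15.5 FPKM, replicate 2, low). Among vehicle rats they were Pou4f1 (27.7 FPKM, replicate 2, high), Sgpp2 (26.2 FPKM, replicate 2, high), S1pr4 (2.68 FPKM, replicate 3, high), Ubxn7 (3.51 FPKM, replicate 3, low) and Klf9 (31.2 FPKM, replicate 3, low).

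Levels differed between the exposed groups for 14 named genes, tested as cisplatin with CYM-5478 minus cisplatin, in the fit across all genes (limma adjusted p 0.0395 to 0.05). Over all genes, this contrast passed for 0 genes without cisplatin replicate 1, among other single libraries, and for 2 with no filter. Several of the 14 were named after their values were seen. The level was higher with CYM-5478 for Sgpp2 (0.82 on the log2 scale), Tubb3 (0.68), Pou4f1 (0.65), Tmem163 (0.62), Syn2 (0.6), Trnp1 (0.57), Uchl1 (0.55), Hcn2 (0.52), Jag2 (0.48) and Exoc1 (0.26). It was lower with CYM-5478 for Lrp4 (-0.23), Uaca (-0.25), Col4a1 (-0.26) and Col5a2 (-0.27).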

How the results depend on the processing

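The pooled count of 1 gene was 0 with no filter, with the exposed rats as 1 group (lowest limma adjusted p 0.23, 1835 genes at unadjusted p under 0.05), under either replicate block and without cisplatin replicates 2 and 3, was 3 with TPM scaling, and ranged from 0 to 4 with single libraries left out. Without vehicle replicate 2 or 4 the 1 gene that passed was not Nrarp (limma adjusted p of Nrarp 0.106 and 0.0999). Nrarp kept its direction in all 25 alternatives (log2 change -0.71 to -0.60) and its call in 12, with limma adjusted p 0.02 to 0.73. The 941 genes differing between exposed groups became 2 with no filter, 2577 with TPM scaling, 452 with array weights, 0 with the title numbers as a replicate block, and 0 to 1085 with single libraries left out. The 2859 genes at unadjusted p under 0.05 in the pooled comparison were 1720 without vehicle replicate 2 and 1027 with the title block. The 185 genes whose libraries did not overlap became 205 to 465 with single libraries left out. This count cannot fall when a library is left out, but the rise differed in size and was largest without CYM-5478 replicate 3. The sum difference of 29.4 (in units of 1000 FPKM) stayed between 23.1 and 34.6. The split of 118 higher and 67 lower was 48 and 171 with TPM scaling and 190 and 275 without CYM-5478 replicate 3. The cause of the differing sizes and of the other changes was not tested. TPM scaling moved the median of all genes to -0.06 in the pooled comparison, -0.09 in cisplatin against vehicle and 0.08 between exposed groups.

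Deviations from group means in libraries of the same number had correlations of -0.244 to 0.154 by description and -0.108 to 0.142 by title. Pairs of unlike number were not set beside them, so these values cannot decide whether rats were paired. The signs of genes near 0 turned. With TPM scaling Atf3 was at -0.02, S1pr2 at -0.05 and Slc31a1 at -0.06, with array weights S1pr2 at -0.01, and with the title block Atf3 at -0.05, S1pr2 at -0.02, S1pr4 at -0.03 and Slc22a2 at -0.16. Without cisplatin replicates 2 and 3, Slc31a1 was at -0.02 and Slc22a2 at -0.03. With single libraries left out, Atf3 ranged from -0.02 to 0.11, S1pr2 from -0.03 to 0.06, Slc31a1 from -0.04 to 0.04 and Slc22a2 from -0.12 to 0.30. Of 2039 single-gene values over 25 alternatives, 2000 kept direction and call. Among the 82 named genes tested only Nrarp had a call to lose, so this count says little about calls. The 13 values that lost a call were those of Nrarp. Hcn2 and Trnp1 passed with TPM scaling (limma adjusted p = 0.0471 each). Depth is unknown, so the precision of low genes such as S1pr5 is too.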
